A study of Sus scrofa with 6 samples.

Results

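The genes described here are cyclins, cyclin-dependent kinases (CDKs) and other cell division cycle genes of the pig oocyte. They were chosen by name. A probe counted if the platform annotation gave it 1 gene symbol starting with CCN and a further letter from A to Y, with CDK, with CDC and a digit, or with ANAPC, CKS, BUB, AURK, PLK or NEK. CDK1 and CCNE2 were left out. This gave 80 of the 10663 genes so named, on 82 of the 12258 probes, and the brightest probe stood for each of the 2 genes with 2 probes. The rule reads only names, but these genes were chosen with earlier results of these data known. Names do not always match function, so some members act outside the cell cycle, as stated where they are described.

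Cyclins are regulatory subunits that rise and fall with the cell cycle and switch on CDKs, their catalytic partners. The fully grown oocyte is held at the prophase of meiosis, enters M phase when cyclin B and its kinase are activated, and then stops again at metaphase of the second division. The anaphase-promoting complex (APC/C) ends each division by marking cyclin B and securin for destruction. The maturing oocyte makes little new RNA and works largely from stored transcripts, so a transcript level does not tell how much protein is made.

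The samples were 3 pools of 50 oocytes matured in culture, set against 3 pools of 50 oocytes taken before culture, all from pubertal crossbred Landrace gilts. Maturation took place in cumulus-oocyte complexes, in which somatic cells surround the oocyte. These spent 44 h at 38 °C and 5% CO2, under oil, in tissue culture medium with bicarbonate, pyruvate, albumin, cysteine, 10% porcine follicular fluid, and hCG and eCG at 2.5 IU/ml each. The labels name the earlier pools in vivo oocytes. The design text mentions a dye test for sorting oocytes, but no single sample is assigned by it. Ovaries of both groups came from slaughter, and the protocols in the labels do not describe how cumulus cells were removed. Maturation and culture cannot be told apart, since the earlier pools were not cultured. The 6 Affymetrix arrays carry 1 colour, and values are log2 levels made by the authors with RMA, so a difference of 1 is a 2-fold change. All differences are matured minus before.

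Array medians lay between 5.62 and 5.64 in the matured group and between 5.67 and 5.70 before maturation. Arrays correlated at 0.994 to 0.995 within the matured group and 0.989 to 0.993 within the earlier one, across probes, which are not independent replicates. Of 15 oocyte markers 10 were measured, with a median brightness at percentile 99.2 of all probes. Of 22 cumulus and granulosa markers 16 were measured. Of these 8 were called lower, 6 were not called and 2 were called higher, HSD3B1 (3.95) and GSTA1 (1.30). GSTA1 was the brightest of the 16 in matured pools (mean 10.93), so it weighs most in their sum there. The summed linear level of these 16 was 4012, 3938 and 3813 on matured arrays 1, 2 and 3, against 6723, 7374 and 9149 before maturation. Precision is limited by the small number of arrays, and p-values measure the spread between pools that the labels call biological replicates. With 3 arrays a group the smallest two-sided p of an exact permutation test is 0.10.

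Of the 80 members, 3 were called higher and 7 lower in matured oocytes (limma, Benjamini-Hochberg adjusted p under 0.05 over all probes). These are 3.75% and 8.75% of the members. Among all 12258 probes 3.21% were called higher and 8.07% lower, so the members were called about as often as any probe. With the replicate number as a block, 621 rather than 394 of all probes were called higher. The same block gave 2 members higher and 10 lower, beside 5.07% and 10% of all probes. Decreases made up 71.5% of the calls over all probes, 59.2% after a second quantile normalization, 80.6% under cyclic loess, 49.3% with all array medians made equal and 2.85% when ribosomal protein probes were made level across arrays. This last scaling adds the same amount to every difference and moved the median over all probes from 0.080 to 0.817. The median difference was 0.03 over the members and 0.08 over all probes. Differences were above 0 for 52.5% of the members and for 65.4% of all probes.

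At least 2-fold decreases were seen for 5 members, CCND2, CDK6, CDK19, NEK9 and CDK5RAP2, and at least 2-fold increases for 0. These 5 are 6.25% of the members, beside 3.304% of all probes with a difference at or below -1.0. Of all probes 99.641% lay at or below 1.0. The highest positive difference was that of CDC25B (0.56), which was not called. For 71 members the 95% interval of the difference lay inside a 2-fold change in both directions, which is 88.8% of the members, and it did for 92.6% of all probes. On the deposited scale most members thus had intervals inside a 2-fold change, at a share near that of all probes.

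**Figure D1:**
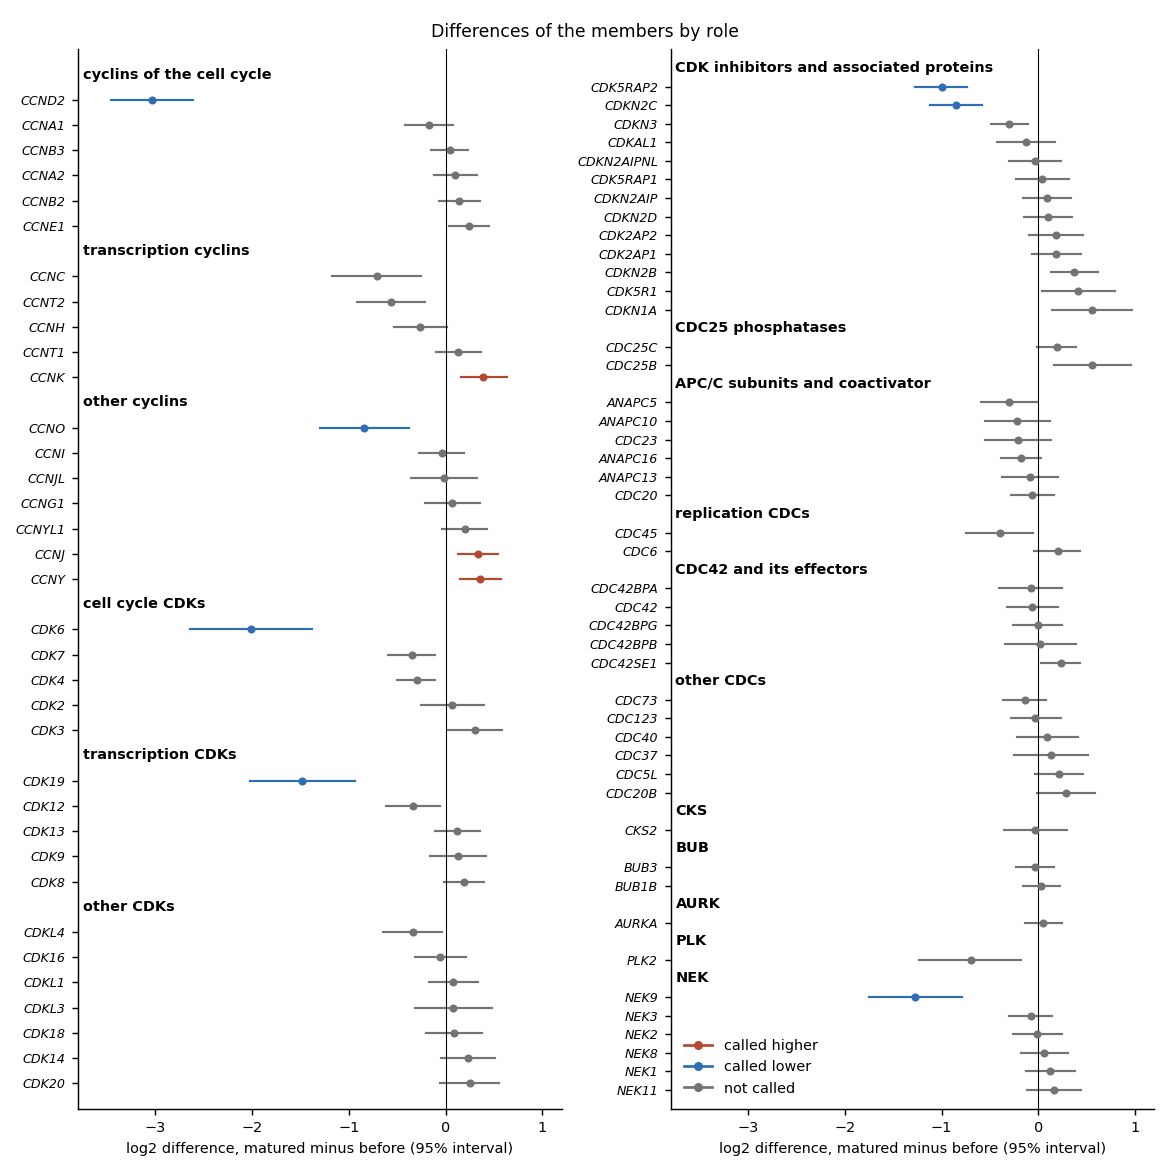
Log2 difference of each of the 80 members, matured minus before, with its 95% interval from limma, grouped by role. Blue marks the 7 members called lower, red the 3 called higher and grey the 70 not called. CCND2 (-3.04) and CDK6 (-2.01) lie farthest to the left, and most grey intervals cross or lie near 0.

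**Figure D2:**
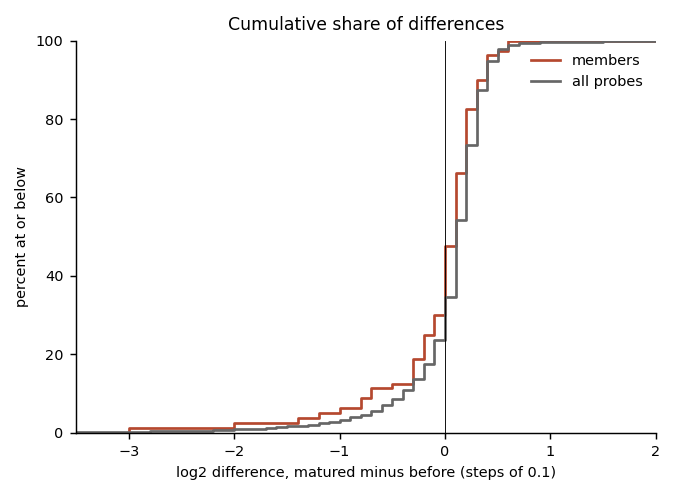
Share of differences at or below each log2 value, in steps of 0.1, for the 80 members (red) and for all 12258 probes (grey). At -1.0 the curves stand at 6.25% of members and 3.304% of probes, and at 0.1 at 66.25% and 54.332%.

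The cyclins that drive the division itself are the A, B, D and E types, of which 6 were members. D-type cyclins carry mitogen signals into G1, the phase before DNA synthesis, and in mice CCND2 is the one that follicle-stimulating hormone induces in granulosa cells. CCND2 had log2 levels of 6.67, 6.24 and 6.97 in matured oocytes, against 9.48, 9.62 and 9.88 before maturation. The groups lay far apart, with every matured array more than 2 log2 units below every earlier one. CCND2 fell by 3.04 (SE 0.19, 95% interval -3.46 to -2.61, adjusted p = 3.92e-05), a level 8.21-fold lower, with means of 6.63 ± 0.37 in matured oocytes and 9.66 ± 0.20 before (SD, n = 3 each). It was called lower in 16 of 16 alternative analyses. Among these, averaging the probes of a gene could not change CCND2 or any other called member, which have a single probe each. In pooled material fewer cells of a type and less RNA per cell cannot be told apart. The summed level of the cumulus and granulosa markers did not overlap between the groups either (3813 to 4012 in matured pools, 6723 to 9149 before). Of these 16 markers 8 were called lower and 2 higher, and their part in the CCND2 result was not tested. The sums of the 10 oocyte markers were also lower without overlap (23064 to 24168 in matured pools, 24359 to 26590 before).

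The other 5 of these cyclins were not called. CCNB2 binds the M-phase kinase at entry into division, and had log2 levels of 10.46, 10.51 and 10.52 in matured oocytes against 10.26, 10.45 and 10.35 before. Its difference was 0.14 (95% interval -0.07 to 0.35, adjusted p = 0.335). All 3 matured arrays lay above the earlier ones, by a margin as small as the rounding of the values. CCNB3 is needed in female mice for the step out of the first meiotic metaphase. Its levels were 8.95, 8.97 and 8.94 in matured oocytes, against 8.89, 8.94 and 8.92 before. The difference was 0.04 (interval -0.15 to 0.23, adjusted p = 0.776).

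CCNA2 serves both DNA synthesis and entry into M phase. It measured 11.04, 11.00 and 11.09 in matured oocytes, against 10.81, 11.00 and 11.03 before, and the groups overlapped (0.10, interval -0.12 to 0.32). CCNA1, which in mice acts mainly in the male germ line, had levels of 4.69, 4.52 and 4.41 in matured oocytes and 4.66, 4.84 and 4.63 before. These lie just over the arrays' lower quartiles (4.27 to 4.45), and the difference was -0.17 (interval -0.42 to 0.08). CCNE1 partners CDK2 at the start of DNA synthesis. Its levels were 9.37, 9.30 and 9.21 in matured oocytes against 9.05, 8.99 and 9.12 before. The groups did not overlap, but the difference of 0.24 (interval 0.03 to 0.45) did not pass over all probes (adjusted p = 0.130). Its relative CCNE2, measured but left out by the rule that chose the members, was called lower. Its difference was -2.98 (interval -3.52 to -2.44, adjusted p = 0.000152).

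Of the 5 member CDKs with a cell cycle role 1 was called. CDK6, a kinase of D-type cyclins, had log2 levels of 5.27, 5.01 and 5.03 in matured oocytes and 7.15, 6.46 and 7.73 before. The earlier arrays spread over more than a log2 unit, and all lay above the matured ones. CDK6 fell by 2.01 (SE 0.27, interval -2.64 to -1.38, adjusted p = 0.00268), to a level 4.03-fold lower. This call held in 15 of 16 alternatives and was lost without shrinkage of the spread (adjusted p = 0.0966). As for CCND2, the sum of the cumulus and granulosa markers was lower in every matured pool, although HSD3B1 and GSTA1 were higher. The part of these markers was not tested.

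CDK4 binds the same D-type cyclins. It had log2 levels of 9.51, 9.47 and 9.53 in matured oocytes against 9.77, 9.77 and 9.88 before, without overlap. The difference of -0.30 (interval -0.50 to -0.11) narrowly missed the threshold (adjusted p = 0.0581) and passed with cyclic loess (-0.36, adjusted p = 0.0325). It turned to 0.43 with the ribosomal protein set held level (adjusted p = 0.0484), where 86.6% of all probes were called higher. CDK7, which activates other CDKs and is part of a general transcription factor, had levels of 9.57, 9.78 and 9.69 in matured oocytes against 9.89, 10.05 and 10.16 before. Its difference was -0.35 (interval -0.60 to -0.11, adjusted p = 0.0713). That value was called with cyclic loess (-0.41, adjusted p = 0.0461), with a trended robust variance (adjusted p = 0.0466) and when replicate 1 before maturation was left out (-0.43, adjusted p = 0.0478).

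CDK2, the partner of cyclins E and A, had levels of 7.98, 7.89 and 7.69 in matured oocytes and 8.07, 7.64 and 7.62 before. The groups overlapped, with a difference of 0.07 (interval -0.25 to 0.40). CDK3, a close relative, differed by 0.30 (interval 0.02 to 0.58, adjusted p = 0.146). Over the whole group the unadjusted p was under 0.05 for 1 member with a positive and 3 with a negative difference.

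**Figure D3:**
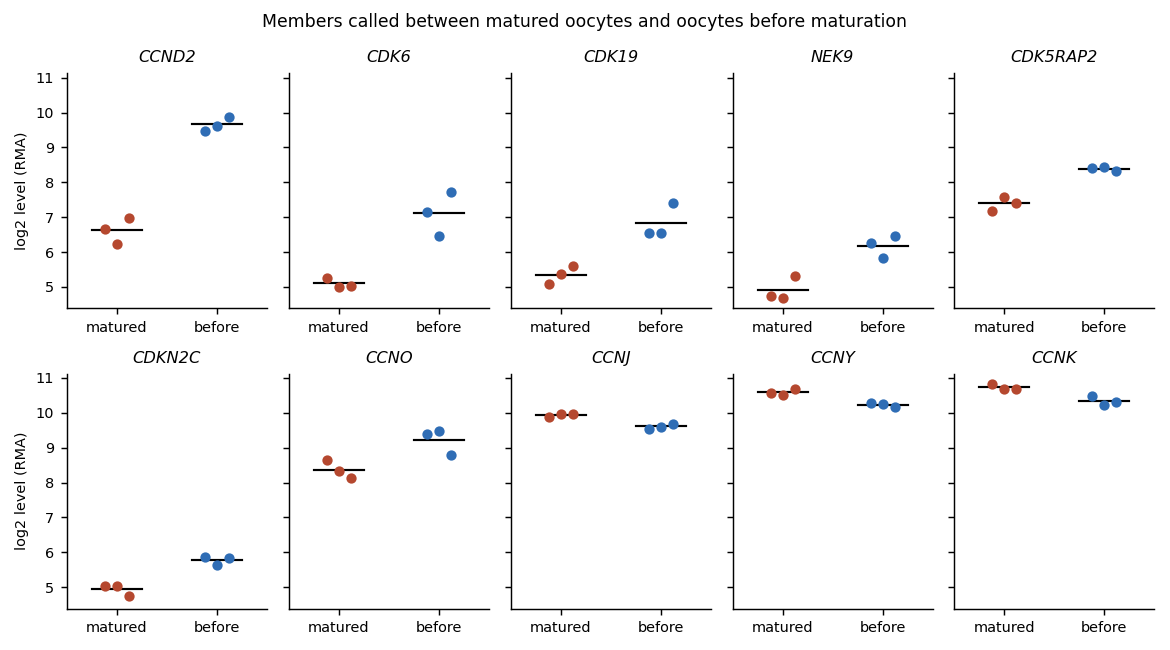
Log2 level of the 10 called members on each array, with matured pools (red) on the left and pools before maturation (blue) on the right of each panel. Horizontal bars are group means. The 3 points of 1 group lie beyond all 3 of the other in every panel, with wide gaps for CCND2 and CDK6 and narrow ones for CCNO, CCNJ, CCNK and CCNY.

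Members that restrain or accompany CDKs formed the most numerous role, with 13 genes, of which 2 fell and 0 rose by limma. The unadjusted p was under 0.05 for 3 with positive and 3 with negative differences. CDKN2C, an inhibitor of CDK4 and CDK6, had log2 levels of 5.03, 5.04 and 4.74 in matured oocytes against 5.86, 5.65 and 5.85 before. Every matured array was below every earlier one. The lowest matured level, 4.74, lies near the lower quartiles of the matured arrays (4.33 to 4.45). CDKN2C fell by 0.85 (SE 0.12, interval -1.12 to -0.58, adjusted p = 0.00291), and was not called under ribosomal scaling (-0.11) or without shrinkage of the spread (adjusted p = 0.0698). Its relatives of the same inhibitor family did not pass, with CDKN2B at 0.37 (interval 0.13 to 0.62, adjusted p = 0.0598) and CDKN2D at 0.10 (interval -0.15 to 0.35). CDKN2B was called higher with a common median (0.43, adjusted p = 0.0337), after a second quantile normalization (0.53, adjusted p = 0.0175) and on leaving out replicate 2 before maturation (0.46, adjusted p = 0.0393). Under ribosomal scaling CDKN2B was called higher too, as were 86.6% of all probes. CCND2, CDK6 and CDKN2C were each called lower after maturation. Of their relatives at the same G1 step, CDK4 (-0.30), CDKN2B (0.37), CDKN2D (0.10) and CCND3 (0.20, not a member) were not called. The step as a whole was not tested.

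CDKN1A blocks CDK2 complexes and is a target of p53. Its log2 levels were 7.28, 7.34 and 7.82 in matured oocytes and 7.23, 6.83 and 6.72 before. The lowest matured value stood only slightly above the highest earlier one. The difference was 0.56 (interval 0.14 to 0.97, adjusted p = 0.0872). It passed after a second quantile normalization (0.69, adjusted p = 0.0363) and on leaving out replicate 1 before maturation (0.71, adjusted p = 0.0354). With the ribosomal protein set held level it was 1.29, but there 86.6% of all probes were called higher. CDKN3, a phosphatase that acts on CDK2, had the tightest groups of this role, 9.02, 9.03 and 9.02 in matured oocytes against 9.30, 9.31 and 9.35 before (-0.30, interval -0.49 to -0.11, adjusted p = 0.0537). CDKN3 was called lower with cyclic loess (-0.34, adjusted p = 0.0326) and without shrinkage of the spread (adjusted p = 0.022).

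CDK5RAP2 is a centrosome protein that helps anchor the complexes from which microtubules grow. It had levels of 7.19, 7.57 and 7.42 in matured oocytes, against 8.40, 8.45 and 8.33 before. The earlier arrays differed by little among themselves and all exceeded the matured ones. CDK5RAP2 fell by 1.003 (SE 0.12, interval -1.27 to -0.74, adjusted p = 0.00113), and was not called with the ribosomal protein set held level (-0.27) or without shrinkage of the spread (adjusted p = 0.0523). CDK5R1, an activator of CDK5, differed by 0.41 (interval 0.04 to 0.79, adjusted p = 0.143). The tRNA-modifying enzymes CDK5RAP1 and CDKAL1 differed by 0.04 and -0.13. The remaining members of this role, CDK2AP1, CDK2AP2, CDKN2AIP and CDKN2AIPNL, lay between -0.03 and 0.18.

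Several cyclins and CDKs serve transcription, and they include members with both directions of change. CDK19 and CDK8 are alternative kinases of the Mediator complex, where CCNC is their cyclin. CDK19 had log2 levels of 5.09, 5.38 and 5.59 in matured oocytes and 6.55, 6.55 and 7.40 before. The groups did not overlap, and replicate 3 before maturation stood above its group. CDK19 fell by 1.48 (SE 0.24, interval -2.02 to -0.94, adjusted p = 0.00584), a level 2.79-fold lower, and lost the call only without shrinkage of the spread (adjusted p = 0.117), of 16 alternatives. CDK8 by contrast measured 10.48, 10.40 and 10.42 in matured oocytes against 10.19, 10.20 and 10.35 before (0.19, interval -0.02 to 0.40, adjusted p = 0.202).

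CCNC, the shared cyclin, had levels of 5.31, 5.49 and 5.82 in matured oocytes against 6.24, 5.88 and 6.63 before. The difference was -0.71 (interval -1.17 to -0.25, adjusted p = 0.0581), and with the replicate block it was called lower (adjusted p = 0.0104). It was also called with a trended robust variance (adjusted p = 0.0396), on a table cleared of its dimmest 25% (adjusted p = 0.0404) and on leaving out replicate 2 before maturation (-0.89, adjusted p = 0.0283). The cumulus and granulosa markers had lower sums in the same matured pools, and their part in the values of CDK19 and CCNC was not tested. Nor was it tested for any other gene called lower here, such as CDKN2C, CDK5RAP2, CCNO, WEE1 and ORC4.

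CCNK, the cyclin of CDK12 and CDK13, which keep RNA polymerase II elongating, had log2 levels of 10.82, 10.68 and 10.69 in matured oocytes against 10.48, 10.22 and 10.30 before. The matured arrays were higher throughout. CCNK rose by 0.39 (SE 0.10, interval 0.16 to 0.63, adjusted p = 0.0449). The call was lost with cyclic loess (0.32, adjusted p = 0.0861), without shrinkage of the spread, and without any 1 array except replicate 1 before maturation. Its kinases did not pass, with CDK12 at -0.34 (interval -0.62 to -0.06, adjusted p = 0.109) and CDK13 at 0.12 (interval -0.11 to 0.35). CDK12 was called lower without replicate 2 before maturation (-0.46, adjusted p = 0.0439).

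CDK9 and its cyclins CCNT1 and CCNT2 release paused RNA polymerase. CCNT2 had levels of 8.02, 7.91 and 7.96 in matured oocytes against 8.23, 8.50 and 8.86 before. Its difference of -0.56 (interval -0.92 to -0.21, adjusted p = 0.0511) was called under the replicate block (adjusted p = 0.0358). It also passed on the table cleared of its dimmest 25% (adjusted p = 0.0391), with a trended robust variance (adjusted p = 0.0412) and on leaving out replicate 1 before maturation (-0.72, adjusted p = 0.0129). CCNT1 and CDK9 each differed by 0.13, with intervals of -0.10 to 0.37 and -0.16 to 0.42. CCNH, the cyclin of CDK7, differed by -0.26 (interval -0.53 to 0.01). Of the 5 transcription cyclins 1 was called higher, and of the 5 transcription CDKs 1 was called lower. With the block 2 of those cyclins were also called lower.

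The other 7 cyclins held the remaining increases. CCNY sits at the cell membrane and activates CDK14 and CDK16. It had log2 levels of 10.58, 10.52 and 10.69 in matured oocytes against 10.29, 10.24 and 10.18 before. CCNY rose by 0.36 (SE 0.09, interval 0.15 to 0.57, adjusted p = 0.0430). CCNJ, named after a cyclin that acts in the fruit fly ovary, had levels of 9.88, 9.96 and 9.98 in matured oocytes against 9.54, 9.60 and 9.69 before. CCNJ rose by 0.33 (SE 0.09, interval 0.13 to 0.54, adjusted p = 0.0493). Both groups were tight for these genes and did not overlap, yet both calls sat close to the threshold. They were lost with the replicate block (adjusted p = 0.0548 for CCNY and 0.0536 for CCNJ), with cyclic loess, without the dimmest 25% of probes, without shrinkage of the spread and without any 1 of the 6 arrays. The count of 3 members called higher was 0 without replicate 1, 2 or 3 of the matured group or replicate 3 before maturation, where 7 to 11 had a positive difference at an unadjusted p under 0.05. It was 1 without replicate 2 before maturation.

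CCNO, required for building the many centrioles of ciliated cells, had log2 levels of 8.65, 8.33 and 8.12 in matured oocytes against 9.38, 9.47 and 8.79 before. Replicate 3 before maturation lay near the matured arrays. CCNO fell by 0.84 (SE 0.20, interval -1.30 to -0.38, adjusted p = 0.0320). The call was lost without replicate 2 or 3 of the matured group, without replicate 1 or 2 before maturation, without shrinkage of the spread, and with the ribosomal protein set held level (-0.11). CCNG1, another target of p53, had 9.82, 9.90 and 9.82 in matured oocytes and 9.53, 9.84 and 9.95 before (0.07, interval -0.21 to 0.35). CCNI, CCNJL and CCNYL1 differed by -0.04, -0.02 and 0.20. The array lists CCNYL1 under 2 probes with identical values, which were counted once.

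**Figure D4:**
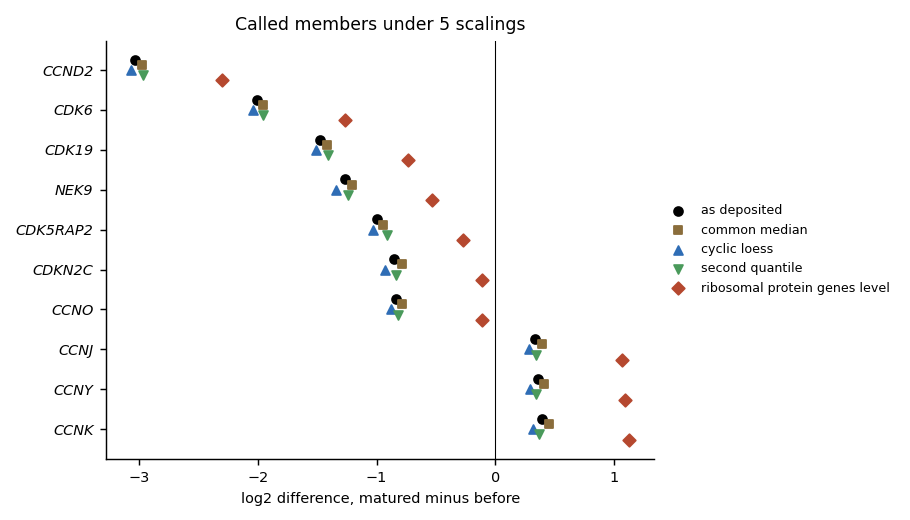
Log2 difference, matured minus before, of the 10 called members on the deposited scale and under 4 other scalings. All 7 decreases stay left of 0 and all 3 increases right of it under the 5 scalings. Holding ribosomal protein genes level moves CDKN2C and CCNO to -0.11.

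Kinases, phosphatases and checkpoint proteins of meiotic M phase had differences whose intervals were mostly narrow. CDC25 phosphatases switch the M-phase kinase on, and in mice CDC25B is required for the oocyte to resume meiosis. CDC25B had log2 levels of 10.81, 10.53 and 10.67 in matured oocytes against 10.52, 9.91 and 9.89 before. Replicate 1 before maturation came close to the matured arrays, and replicates 2 and 3 lay well below. The difference was 0.56 (interval 0.16 to 0.96, adjusted p = 0.0763), and it was called higher with the replicate block (adjusted p = 0.0212). It also passed with a common median (0.62, adjusted p = 0.0477), with a trended robust variance (adjusted p = 0.0365), and on leaving out replicate 1 before maturation (0.77, adjusted p = 0.00589). CDC25C had 9.56, 9.64 and 9.54 in matured oocytes against 9.41, 9.33 and 9.42 before (0.19, interval -0.01 to 0.39, adjusted p = 0.181).

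AURKA organises spindle poles. Its log2 levels were 11.86, 11.82 and 11.82 in matured oocytes and 11.78 on each array before. The difference was 0.05 (interval -0.14 to 0.24), so the groups were separate but by less than the error limma assigned. BUB1B and BUB3 hold back the APC/C until chromosomes are attached. BUB1B had 9.43, 9.40 and 9.36 in matured oocytes against 9.34, 9.36 and 9.41 before (0.03, interval -0.16 to 0.22). BUB3 had 10.70, 10.64 and 10.70 in matured oocytes against 10.70, 10.67 and 10.77 before (-0.03, interval -0.23 to 0.16). All 3 genes were called higher with the ribosomal protein set held level (0.79, 0.77 and 0.71), as were 86.6% of all probes.

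CKS2 binds CDKs and in mice is needed for germ cells to leave the first meiotic metaphase. It had 9.70, 9.69 and 9.97 in matured oocytes and 9.57, 10.05 and 9.82 before, with overlap (-0.03, interval -0.35 to 0.30). Of the polo-like kinases only PLK2 was among the members, a kinase of centriole duplication and stress responses. Its levels were 5.60, 4.91 and 5.39 in matured oocytes against 6.36, 5.57 and 6.08 before. The groups overlapped, although each matured array was below the earlier array of the same number. The difference of -0.70 (interval -1.23 to -0.18, adjusted p = 0.0866) was called lower with the replicate block (adjusted p = 0.00281). It also passed when replicate 2 before maturation was left out (-0.92, adjusted p = 0.0377).

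The NEK kinases act on centrosomes, spindles and cilia, and 1 of 6 was called. NEK9, which activates related kinases at the mitotic spindle, had log2 levels of 4.75, 4.69 and 5.31 in matured oocytes against 6.27, 5.82 and 6.46 before. No matured array reached the earlier ones. The matured levels of 4.75 and 4.69 lie near the lower quartiles of the matured arrays (4.33 to 4.45). NEK9 fell by 1.27 (SE 0.21, interval -1.75 to -0.79, adjusted p = 0.00648), a level 2.41-fold lower. It was called lower in 15 of 16 alternatives, losing the call without shrinkage of the spread (adjusted p = 0.117). Sums of cumulus and granulosa markers were lower in the same pools, and their part was not tested. NEK2, a kinase that separates centrosomes, had 8.31, 8.31 and 8.48 in matured oocytes against 8.42, 8.51 and 8.19 before (-0.01, interval -0.26 to 0.25). NEK1, NEK3, NEK8 and NEK11 lay between -0.08 and 0.16.

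The APC/C was represented by 5 subunits and its coactivator CDC20, and limma called 0 of 6. ANAPC5 was the only one with an unadjusted p under 0.05, and all 6 differences were negative. Differences at or below 0 made up 47.5% of all the members and 34.606% of all probes. ANAPC5 had 5.26, 5.17 and 5.57 in matured oocytes against 5.48, 5.71 and 5.71 before (-0.30, interval -0.59 to -0.01, adjusted p = 0.163). ANAPC10 had 8.01, 8.02 and 8.29 in matured oocytes against 8.05, 8.57 and 8.35 before (-0.22, interval -0.55 to 0.12). ANAPC13 had 8.61, 8.79 and 8.62 in matured oocytes against 8.54, 8.97 and 8.76 before (-0.09, interval -0.37 to 0.20).

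For each of these 3 subunits the groups overlapped, whereas those of ANAPC16 did not (-0.18, interval -0.39 to 0.03). CDC23, another subunit, had 4.27, 4.65 and 4.32 in matured oocytes against 4.39, 4.64 and 4.85 before, with 2 matured arrays under their lower quartile (-0.21, interval -0.55 to 0.13). CDC20 directs the complex to its targets at anaphase, and had 9.10, 9.14 and 9.06 in matured oocytes against 9.16, 9.27 and 9.04 before (-0.06, interval -0.28 to 0.16). Other scalings rework the same arrays, so a sign kept under them is not separate support. All 6 differences stayed negative with a common median, cyclic loess and a second quantile normalization, with ANAPC5 at -0.24, -0.38 and -0.28. Some were close to 0, as CDC20 was at -0.003 with a common median, and ANAPC13 turned to 0.021 without replicate 2 before maturation. With the ribosomal protein set held level all 6 were positive, as the amount which that scaling adds to every difference exceeds each of them.

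Replication genes among the members were CDC6, which loads the helicase at origins, and CDC45, which becomes part of it, and neither was called. CDC45 had log2 levels of 7.50, 7.66 and 7.95 in matured oocytes against 8.03, 8.35 and 7.92 before (-0.40, interval -0.75 to -0.05, adjusted p = 0.133). CDC6 had 9.96, 10.12 and 10.08 in matured oocytes against 10.01, 9.79 and 9.78 before (0.20, interval -0.04 to 0.43). The groups overlapped for both.

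CDC42 is a small GTPase that polarises the cell, and in mouse oocytes takes part in polar body emission. It had 10.42, 10.38 and 10.44 in matured oocytes against 10.28, 10.48 and 10.66 before (-0.06, interval -0.32 to 0.20). CDC42SE1, one of its binding partners, had 10.75, 10.64 and 10.63 in matured oocytes against 10.42, 10.46 and 10.45 before. The groups of CDC42SE1 did not overlap, and the difference was 0.23 (interval 0.03 to 0.43, adjusted p = 0.129). The CDC42-binding kinases CDC42BPA, CDC42BPB and CDC42BPG had differences of -0.08, 0.02 and -0.0034, and the second probe of CDC42BPA had 0.12.

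Of the remaining 6 CDC members 0 were called with limma, and 0 had an unadjusted p under 0.05. CDC20B, a relative of CDC20, had 7.09, 7.09 and 6.89 in matured oocytes against 6.96, 6.74 and 6.49 before (0.29, interval -0.01 to 0.59). CDC37 is a chaperone partner of kinases, CDC40 and CDC5L act in splicing, CDC73 in transcript elongation and CDC123 in assembling an initiation factor of translation. Their differences ran from -0.14 for CDC73 to 0.21 for CDC5L. The other 7 CDKs, including CDK14, CDK16, CDK18 and CDK20, also gave 0 calls with limma and 1 unadjusted p under 0.05. That was CDKL4, with 3.06, 3.01 and 3.11 in matured oocytes against 3.39, 3.15 and 3.67 before (-0.34, interval -0.65 to -0.04, adjusted p = 0.139). CDKL4 lay under the lower quartile on all 6 arrays, so its difference is between dim values.

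The groups were fully separated, upward for 15 members and downward for 15, each 18.8% of the members. Among all probes 21.7% were separated upward and 14.4% downward. These 30 are the 10 called members and 20 others, among which are CCNB2, CCNB3 and AURKA, whose differences were 0.14, 0.04 and 0.05. The median SD between replicates was 0.106 over the members in the matured group and 0.148 before maturation, and over all probes it was 0.116 in the matured group and 0.133 before.

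Closely related members were then compared within each array. The log2 level of one minus that of the other removes any shift that a scaling adds to a whole array. Levels of different probes are not comparable in themselves, so only the change of this quantity between the groups is given. The 26 pairs were chosen for their kinship after the values of these genes were known. CDK4 minus CDK6 was 4.24, 4.46 and 4.50 in matured oocytes against 2.62, 3.31 and 2.15 before, a difference of 1.71. CDK8 minus CDK19 was 5.39, 5.03 and 4.83 in matured oocytes against 3.64, 3.64 and 2.95 before, a difference of 1.67. In both pairs the groups were clearly apart, with CDK6 and CDK19 as the members called lower after maturation.

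CDKN2B minus CDKN2C was 1.89, 1.76 and 2.11 in matured oocytes against 0.58, 1.01 and 0.52 before, a difference of 1.22. NEK8 minus NEK9 was 0.13, -0.01 and -0.68 in matured oocytes against -1.47, -1.20 and -1.89 before, a difference of 1.33. Both genes were dim in matured oocytes (means of 4.73 for NEK8 and 4.91 for NEK9). CCNT1 minus CCNT2 was 1.42, 1.68 and 1.66 in matured oocytes against 1.33, 0.87 and 0.49 before, a difference of 0.69. The sign of each difference depends on which gene is written first. CDKN2C minus CDKN2D was 0.45, 0.27 and 0.03 in matured oocytes against 1.38, 0.87 and 1.33 before, a difference of -0.95. CDK12 minus CDK13 was -1.18, -1.26 and -1.27 in matured oocytes against -0.53, -1.01 and -0.79 before, a difference of -0.46.

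The remaining pairs without overlap were CDKL3 minus CDKL4 (0.42), CDC20 minus CDC20B (-0.35), CDK14 minus CDK16 (0.28) and CDKN2B minus CDKN2D (0.27). Among the pairs that overlapped, the changes were 0.10 for CCNB2 minus CCNB3, 0.16 for CCNY minus CCNYL1 and 0.12 for CDKN2AIP minus CDKN2AIPNL. Altogether 11 of the 26 pairs did not overlap between groups, while among all 3160 pairs that can be formed from the 80 members 40.3% did not. The exact two-sided permutation p of such a pair is 0.10, the smallest the design allows, and 0.24 after adjustment over the 26 pairs, so no pair passes a threshold of 0.05.

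**Figure D5:**
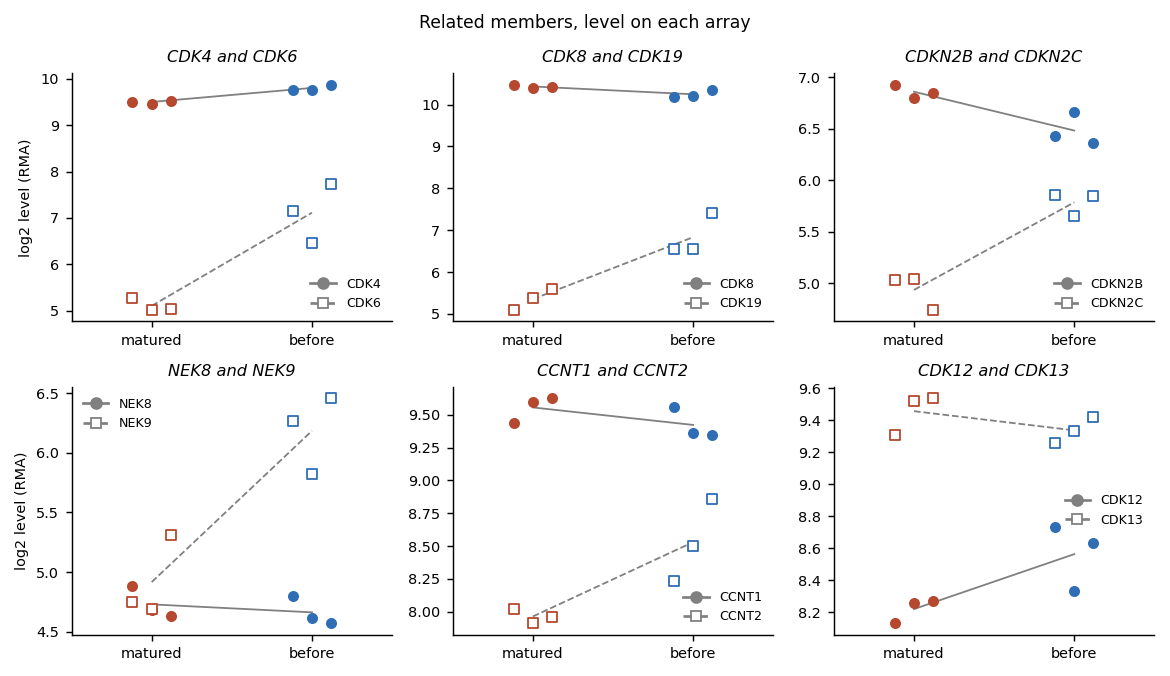
Log2 level on each array of 6 pairs of related members, matured (red) on the left and before (blue) on the right. Filled circles and solid lines show the first gene and open squares and dashed lines the second, with lines joining group means. Only the slopes can be compared between genes, since levels of different probes are not on a common scale. CDK6, CDK19, CDKN2C, NEK9 and CCNT2 slope toward lower values in matured oocytes, and so do CDK4 (-0.30) and CDK12 (-0.34). The other plotted genes slope slightly the other way.

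Other genes of the division cycle were taken from a list of 75 names that are not members, covering the M-phase kinase's regulators, the spindle checkpoint, the retinoblastoma and E2F pathway and replication origins. Of these 39 were measured, of which 0 were called higher with limma and 2 lower, with a median difference of 0.09. Among all probes 3.21% were called higher and 8.07% lower, with a median difference of 0.08, so the list was not called more often than any probe. At an unadjusted p under 0.05 there were 6 with a positive and 3 with a negative difference. WEE1, which restrains the M-phase kinase, fell by 2.12 (interval -2.81 to -1.43, adjusted p = 0.00334). It had 5.55, 5.60 and 6.50 in matured oocytes against 8.15, 7.46 and 8.40 before. ORC4, a subunit of the origin recognition complex, had 7.42, 7.33 and 7.48 in matured oocytes against 7.90, 7.81 and 8.25 before, and fell by 0.58 (interval -0.87 to -0.29, adjusted p = 0.0238). The groups did not overlap for either gene.

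CDK1, left out by the rule, had a difference of -0.04 (interval -0.51 to 0.43). Probes of CCND3, NEK5 and NEK10 repeat their symbol in the annotation and were not members. Their differences were 0.20, 0.23 and 0.02, and none was called.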

How the data were processed

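The table holds log2 expression values that the authors made with RMA, per the submitters' processing notes. RMA as usually run subtracts background, quantile-normalizes arrays and summarises probes, with a version and options not given in the sources used here. The log2 scale of the deposited values is inferred from RMA and their range. Detection calls were not analysed here. RNA (100 ng a pool) went through 2 rounds of amplification, per the labels' protocols, which can distort the levels of rare transcripts.

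All 12258 probes were fitted in R 4.3.3 with lmFit and eBayes of limma 3.58.1. Two-sided p-values were adjusted by Benjamini-Hochberg across all probes, with 0.05 as the threshold. The 80 members were read from that fit, and all 80 symbols stand in the RefSeq gene table. Members and lists were chosen with earlier results of these data known. Array values are given for called members, the largest difference in each role and a fixed list of meiosis genes, 40 in all. Other genes (with array values for CDK8, CDKN3, CCNT2, WEE1 and ORC4) were named after their values were seen. Deviations from the group means correlated weakly between arrays with the same replicate number (0.283, 0.120 and 0.142), and at -0.1675 to 0.0191 between different numbers. Deviations within a group sum to 0, so these values are not independent. They give a hint of pairing from the data and not from the labels. The fit without the block was kept. The fit was tested on simulated data. Tables and figures used Python 3.11.15, pandas 2.3.3, scipy 1.17.1 and matplotlib 3.10.9. No sequence table was used here. The planned search for promoter motifs was therefore not run.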

Additional observations from a re-analysis of the deposited data

How the results depend on the processing

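With 40 ribosomal protein probes held level, the median of all probes moved from 0.080 to 0.817 and that of the members to 0.770, with 66 members called higher and 4 lower beside 10610 and 311 of all probes (86.6% and 2.54%). This scaling adds the same amount to every difference, so changes of sign under it follow from its construction and tell nothing of single members. Those that were called took ANAPC10 to 0.520, ANAPC13 to 0.651, ANAPC5 to 0.437, BUB3 to 0.705, CCNA1 to 0.567, CDC20 to 0.677, CDC23 to 0.528, CDC42 to 0.680, CDK4 to 0.433, CKS2 to 0.709 and NEK2 to 0.729. Under the other 3 scalings none of the 40 named members had a called change of sign. These scalings moved the count of members called higher from 3 to 5 (common median), 5 (second quantile normalization) and 0 (cyclic loess, where 6 passed at an unadjusted p under 0.05), and that of all probes to 915, 596 and 254. Without the dimmest 25% of probes 1 member was called higher and 9 lower, beside 4.07% and 11.2% of all probes. Without shrinkage of the spread 0 members were called higher and 2 lower (9 and 12 at an unadjusted p under 0.05), beside 50 and 147 of all probes. With the replicate block all probes called higher numbered 621. It changed the calls of 6 members, each given with its result, and of no other member. Leaving out each array in turn gave 103 to 434 probes called higher and 531 to 1013 lower, and 0 to 3 members higher and 6 to 9 lower. The median of the members stayed between 0.001 and 0.043. Adding the 3 probes with a repeated symbol, an alternative chosen after seeing the data, changed neither count of members called. The cause of these shifts was not tested beyond what each alternative does by construction. Where a group's levels lie near the lower quartile, signal over background was not assessed and a fold can be understated.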

Other observations

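Markers of further cell types were measured beside the members, with no explanation tested. Of 8 theca and stromal markers 2 were called higher (COL3A1 and POSTN) and 1 lower (ACTA2), and the summed linear level was 270 to 282 in matured pools and 274 to 344 before. Of 4 endothelial markers limma called 0, and 1 had a positive difference at an unadjusted p under 0.05. Their sums were 283 to 344 in matured pools and 291 to 304 before. Of 6 leukocyte and erythroid markers 1 was called higher (CD3E), with sums of 156 to 175 in matured pools and 119 to 136 before. Of these 6 markers 3 lay under the lower quartile on all 6 arrays, so the sums differ in part between dim values. The same held for 2 of the theca and stromal markers and 1 of the endothelial ones. Signal over background was not assessed, so these sums do not tell whether RNA of such cells changed. Of the 10 oocyte markers ZP3 and ZP4 were called lower and 0 higher by limma (0 higher at an unadjusted p under 0.05 too), with sums of 23064 to 24168 in matured pools and 24359 to 26590 before.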
